A study of Arabidopsis thaliana with 48 samples.

Results

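The genes of the chloroplast genome were followed through leaf RNA of Arabidopsis thaliana under different growth light, at different times of day and after a step in light. They were found by their locus identifier, which begins with ATCG for the plastid genome, and a locus was kept when its counts summed to at least 10 over all replicates. The deposited tables list 133 such loci, of which 95 passed that minimum and 36 had no count at all, out of 33602 loci in all. Just inside the minimum lay ATCG00050 with 24 counts and ATCG00590 with 31, and just outside it ATCG00290 with 8 and ATCG00210 with 2. Counting the columns that occur in more than one table once for each table would have given 96 loci.

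The plastid genome encodes core subunits of both photosystems, of the cytochrome b6f complex and of the ATP synthase. It also holds subunits of an NADH dehydrogenase-like complex, the large subunit of Rubisco, part of the plastid ribosome and RNA polymerase, and the ribosomal and transfer RNAs of the organelle. In leaves its genes are transcribed mainly by that plastid-encoded polymerase, which takes nuclear sigma factors to its promoters and carries a set of nuclear-encoded associated proteins. A nuclear-encoded polymerase of the phage type transcribes a further set of genes. Mature plastid transcripts mostly lack a long poly(A) tail. How RNA was selected for the libraries is not given in the sources used here, and the part of that selection in the level of plastid counts was not tested.

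Identifiers of only 6 of the 95 loci are paired with a product name in the RefSeq annotation of assembly TAIR10.1. The names come from notes that cite a locus as a match, and they were not checked further for these 6 loci. These are ATCG00430 (photosystem II reaction center protein G), ATCG00530 (a CemA-like protein related to proton extrusion), ATCG00660 (ribosomal protein L20), ATCG00670 (the plastid-encoded ClpP, the catalytic subunit of the Clp protease), ATCG00750 (ribosomal protein S11) and ATCG01310 (ribosomal protein L2). The other 89 loci are given by identifier, and since gene lengths could not be paired with them, levels were compared between samples and not, per length, between loci. Of the 131 genes of the plastid genome in that annotation, 34 lie in identical copies, and reads of such copies cannot be assigned to one of them.

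All plants were of the ecotype Columbia and grew at warm days and cold nights. In the light step, plants grown at a photon flux density of 100 µmol photons per square metre per second (light 100) were moved to 700 (light 700), and the 2 groups are labelled day 0.6 and day 2.57. In the growth light groups, plants stood at light 100, 250, 450 or 700 and were taken at day 0.583. In the diurnal groups, plants at light 250 were taken at days 0.083, 0.25, 0.375, 0.625, 0.75 and 0.916. The days are used as names, because their starting point is not stated. The labels' step of less than a day does not obviously match day 2.57. Each of the 12 groups has 2 replicates, random pools of RNA from separately extracted plants, so the p-values measure the spread between pools. Totals ran from 20418095 to 36331053 counts per replicate, over 22127 to 23149 loci with a count. The summed level of 4 leaf mesophyll marker genes was 11049 to 38445 CPM (a count relative to the scaled total of its replicate), against at most 0.431 for 3 root markers, 2.62 for 3 flower organ markers and 0.0947 for 2 seed storage genes.

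Plastid loci took between 0.328% and 0.950% of all counts of a replicate, with a median of 0.545%. A handful of loci carried nearly all of that: ATCG01180, ATCG00950, ATCG00920 and ATCG01210 held 88.7% of the plastid counts. They fell into pairs with nearly equal sums, ATCG01180 with 1271194 and ATCG00950 with 1271152 counts, and ATCG00920 with 676150 and ATCG01210 with 673912. Within every replicate the loci of a pair differed by at most a factor of 1.02, so each pair is read here as 1 signal that the counting could not divide. The next locus by counts, ATCG00020, averaged 165.8 CPM over the 24 replicates, against 1654 CPM for ATCG01180. It was followed by ATCG00490 with 92.6 CPM, ATCG00340 with 51.5, ATCG00350 with 45.1, ATCG00280 with 39.7, ATCG00480 with 29.8, ATCG00680 with 27.4 and ATCG00270 with 21.4 CPM. At the other end, 9 of the 95 loci had fewer than 100 counts over the whole series, while 51 had more than 1000. These are shares of reads, with long and short genes counted alike.

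Among the growth lights, the plastid share was highest at light 100 and lower at each of the other 3. After the light step it was 0.429% and 0.535% in the replicates of day 0.6 and 0.617% and 0.438% in those of day 2.57. In growth light it was 0.628% and 0.744% for the replicates of light 100 and 0.547% and 0.561% for those of light 250. It was 0.506% and 0.328% for those of light 450 and 0.584% and 0.467% for those of light 700. No replicate of light 250, 450 or 700, or of either step group, reached the lower replicate of light 100, whereas the step groups overlapped with light 700 and with each other. The log2 ratio of the mean share to that of light 100 was -0.30 for light 250, -0.75 for light 450, -0.39 for light 700, -0.51 for step day 0.6 and -0.40 for step day 2.57. The SD of the replicates of both groups combined, on the same scale, was 0.18, 0.47, 0.29, 0.28 and 0.39 in these comparisons. Without the 4 loci of highest count, the ratio for step day 2.57 turned to 0.21. On the remaining 91 loci the share was 0.05977% and 0.07530% at light 100. It was 0.05786% and 0.05984% at light 250 and 0.06947% and 0.05048% at light 700, so both lights overlapped with light 100. Step day 2.57, at 0.08863% and 0.06779%, overlapped with light 100 as well. Light 450 (0.05132% and 0.04241%) and step day 0.6 (0.05249% and 0.05438%) stayed below it. Fewer plastid-rich cells in the leaf and less plastid RNA per cell cannot be told apart in such bulk samples. A sum over chosen loci was given no p-value.

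**Figure D1:**
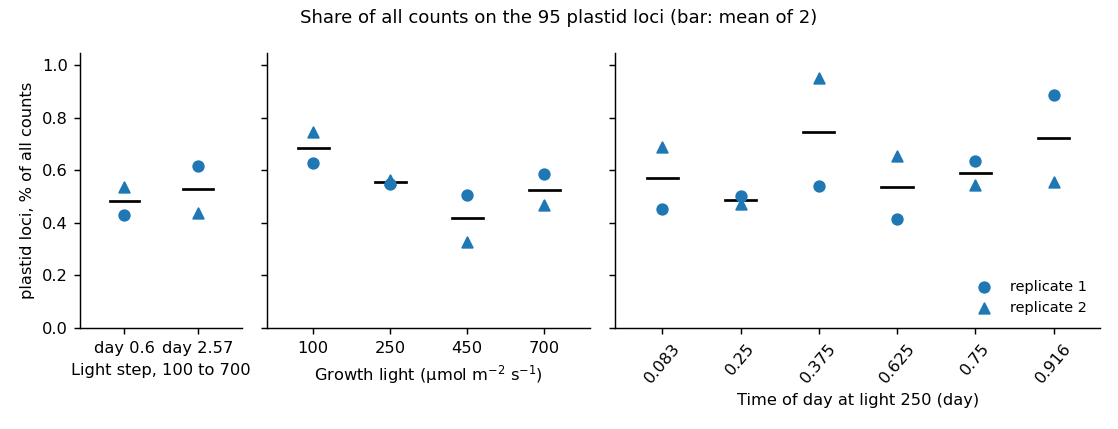
Percentage of all counts of each replicate that fell on the 95 plastid loci, by light step, growth light and time of day, with circles for replicate 1, triangles for replicate 2 and a bar for their mean. Both replicates at light 100 lie above all replicates of the higher growth lights and of the step groups, and the replicates of days 0.375 and 0.916 lie far apart.

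By time of day, the share was 0.454% and 0.689% in the replicates of day 0.083, 0.501% and 0.470% in those of day 0.25, and 0.538% and 0.950% in those of day 0.375. It was 0.415% and 0.656% in those of day 0.625, 0.634% and 0.542% in those of day 0.75, and 0.888% and 0.556% in those of day 0.916. Replicates of 1 group differed by a factor of 1.03 at light 250 and by up to 1.76 at day 0.375. The highest group mean, at day 0.375, was 1.78 times the lowest, at light 450. The largest spread within a group was thus about the size of the range between group means. The log2 ratio of the mean share was 0.27 for day 0.75 relative to day 0.25, with a combined SD of 0.17 and replicates that did not overlap. For day 0.625 relative to day 0.083 it was -0.10, with a combined SD of 0.63 and overlapping replicates.

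In most groups the plastid loci were mainly higher in the same replicate. Over the 56 plastid loci with a mean of at least 1 CPM, the median log2 difference of replicate 2 minus replicate 1 was 0.40 for day 0.083, 0.42 for day 0.375, 0.53 for day 0.625 and 0.36 for light 100. It was -0.43 at step day 2.57, -0.38 at light 700, -0.32 at day 0.916 and -0.30 at light 450, and between -0.18 and 0.10 in the remaining 4 groups. In light 100, 53 of the 56 loci were higher in replicate 2, against 3 of 56 in light 700. Over 18448 nuclear loci the same median, which the scaling holds near 0, was between -0.02 and 0.02 in every group. The share of counts on mitochondrial loci, 0.0173% to 0.0434%, was higher in the same replicate as the plastid share in 11 of the 12 groups. Whether both organelle shares moved for a common reason was not tested.

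The 91 loci outside the 4 with most counts made up a steadier portion of the plastid counts, and that portion was largest at step day 2.57. They took 12.2% and 10.2% of the plastid counts at step day 0.6, 14.4% and 15.5% at step day 2.57, and 9.52% and 10.1% at light 100. For light 250 the values were 10.6% and 10.7%, for light 450 they were 10.1% and 12.9%, and for light 700 they were 11.9% and 10.8%. Both replicates of step day 2.57 lay above all others in the series, although the higher replicate of day 0.75 came close with 14.4%. Replicates of a group differed here by a factor of 1.01 to 1.27. Over the day the portion was lowest at day 0.916, with 9.87% and 9.56%, and highest at day 0.75, with 12.7% and 14.4%.

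**Figure D2:**
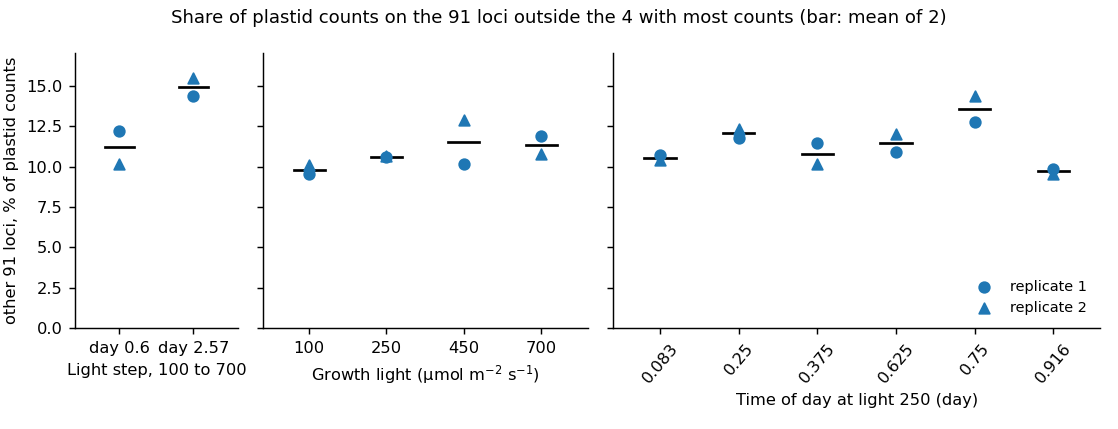
Percentage of plastid counts that fell on the 91 loci outside the 4 with most counts, by light step, growth light and time of day, with circles for replicate 1, triangles for replicate 2 and a bar for their mean. Step day 2.57 and day 0.75 stand highest, and light 100 and day 0.916 lowest.

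Growth light was tested over all loci with edgeR's quasi-likelihood test and Benjamini-Hochberg adjustment, at an adjusted p under 0.05, and 82 of the 95 plastid loci passed the filter on low counts. The 3 comparisons share the replicates of light 100. Both loci of each pair of nearly equal counts are counted here, and all 4 of these loci were among the falls at light 700. At light 450, 44 of the 82 loci fell relative to light 100 and 0 rose, where 43.7% of all loci tested passed the threshold, 21.4% as higher and 22.3% as lower. The median log2 change of the 82 was -0.93, and of all loci 0.00. At light 700, 21 fell and 0 rose, with 40.0% of all loci called, 19.7% higher and 20.3% lower, and a median of -0.58 for the plastid loci against 0.00. At light 250, 6 fell and 0 rose, with 28.7% of all loci called, 14.2% higher and 14.4% lower, and a median of -0.38 against 0.00. Plastid loci were thus called lower more often than the background at light 450, near it at light 700 and less often at light 250.

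These counts depended on single libraries, but leaving out a library also changed the number of all loci called. The median log2 change of the plastid loci is given here instead. Replicate 2 of light 100 had the higher plastid share. Without it the median was -0.24 at light 250, -0.68 at light 450 and -0.36 at light 700. Without replicate 1 of light 100 it was -0.53, -1.04 and -0.77. At light 450 the median was -1.13 without replicate 1 of that light and -0.74 without replicate 2. At light 700 it was -0.88 without replicate 1 of that light and -0.36 without replicate 2. At light 250 it was -0.37 and -0.40 without replicate 1 and 2 of that light.

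ATCG00480 fell at every growth light above 100. Its level was 44.6 and 53.1 CPM at light 100, 35.6 and 35.0 CPM at light 250, 22.7 and 19.7 CPM at light 450 and 24.8 and 19.8 CPM at light 700. The replicates of light 100 lay above all others in the series, and those of light 450 and 700 overlapped with each other. Relative to light 100 its log2 change under light 250 was -0.47 ± 0.12 (SE), with an adjusted p of 0.0102. Under light 450 the change was -1.21 ± 0.12 (adjusted p = 8.92e-06), and under light 700 it was -1.14 ± 0.12 (adjusted p = 1.52e-05). The call at light 250 was lost when either of its replicates or replicate 2 of light 100 was left out (adjusted p = 0.0543 to 0.102).

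ATCG00470, the neighbour of ATCG00480 by identifier, stood at 11.6 and 15.1 CPM at light 100, 10.5 and 9.65 CPM at light 250, 5.71 and 4.79 CPM at light 450 and 6.60 and 4.95 CPM at light 700. Its log2 change was -1.34 ± 0.18 under light 450 (adjusted p = 7.98e-05), and -1.21 ± 0.18 under light 700 with an adjusted p of 0.000179. Under light 250 it did not pass (-0.40 ± 0.17, adjusted p = 0.0997). The groups of light 450 and 700 did not overlap with light 100.

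Among the loci with most counts, ATCG01180 had 1384 and 853 CPM at light 450, against 1976 and 2425 CPM at light 100. ATCG00920 had 735 and 432 CPM at light 450, against 1041 and 1215 CPM at light 100, a log2 change of -0.96 ± 0.19 (adjusted p = 0.00175). ATCG00490 had 66.6 and 40.2 CPM at light 450, against 95.6 and 129.2 CPM at light 100, a log2 change of -1.07 ± 0.22 (adjusted p = 0.00168). In all 3 loci the lower replicate of light 450 was replicate 2, the replicate with the smallest plastid share of the series. ATCG00020 fell as well, with 122.4 and 109.7 CPM at light 450 against 162.8 and 181.3 CPM at light 100, a log2 change of -0.58 ± 0.13 (adjusted p = 0.00426). For ATCG00340 and ATCG00350 the replicates of light 450 and light 100 overlapped, and their changes of -0.41 ± 0.19 and -0.47 ± 0.21 did not pass (adjusted p = 0.105 and 0.0900).

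The largest falls among loci with at least 1 CPM on average, whose replicates did not overlap, were those of ATCG00130, ATCG00040 and ATCG01130 at light 450, with log2 changes of -1.53 ± 0.32, -1.50 ± 0.28 and -1.48 ± 0.48. At light 700 they were those of ATCG01130, ATCG01010 and ATCG00140, with -1.51 ± 0.47, -1.40 ± 0.41 and -1.31 ± 0.34. At light 250 they were those of ATCG00780, ATCG00040 and ATCG00530, with -1.08 ± 0.33, -1.06 ± 0.28 and -0.72 ± 0.23. The calls of ATCG01130, ATCG01010 and ATCG00140 in these comparisons were lost without replicate 2 of light 100, and likewise without replicate 2 of the higher light. All 3 calls at light 250 were lost without replicate 2 of light 100, whereas those of ATCG00130 and ATCG00040 at light 450 were kept with any 1 replicate left out.

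After the light step, the plastid loci called relative to light 100 had all fallen at day 0.6. At day 2.57 they had moved both ways, and the median of the plastid loci fell from 0.31 to -0.02 without 1 library. In this set 84 of the 95 passed the filter. At step day 0.6, 15 of the 84 fell relative to light 100 and 0 rose, where 49.0% of all loci tested were called, 25.0% higher and 24.0% lower. The median log2 change of the 84 was -0.37, and of all loci -0.02. At step day 2.57, 11 rose and 5 fell relative to light 100, where 41.7% of all loci were called, 22.2% higher and 19.5% lower, and the median of the 84 was 0.31 against -0.01. Between the step groups, 17 rose and 1 fell at day 2.57 relative to day 0.6, where 15.2% of all loci were called, 7.63% higher and 7.56% lower, with a median of 0.71 against 0.00. The 2 comparisons with light 100 share its replicates, as the step groups are shared with the comparisons that follow. Both loci of each pair of nearly equal counts are counted here too. Relative to light 100, all 4 were among the falls at step day 0.6, and ATCG00920 and ATCG01210 among those at step day 2.57.

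Relative to growth at light 700, 11 loci rose and 1 fell at step day 0.6, where 53.4% of all loci were called, 26.8% higher and 26.6% lower, with a median of 0.20 against -0.02. With scaling by total counts alone, which moved the median of all loci to -0.25 in this comparison, 3 were called higher and 7 lower. At step day 2.57, 36 loci rose and 0 fell relative to light 700, where 46.3% of all loci were called, 24.1% higher and 22.2% lower, with a median of 0.71 against 0.00. The loci called, in either direction, were 17.9% and 19.0% of the 84 at step days 0.6 and 2.57 relative to light 100, 14.3% and 42.9% relative to light 700, and 21.4% between the step groups. Set against the background, only the rises at step day 2.57 relative to light 700 and to step day 0.6 were a larger share than among all loci tested.

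Single libraries weighed on these counts too, and the number of all loci called changed with them, so medians of the plastid loci are given. At step day 0.6 relative to light 100 the median was -0.22 without replicate 2 of light 100, in place of -0.37. It was -0.30 there without replicate 1 of step day 0.6. At step day 2.57 relative to light 100 it was 0.14 without replicate 1 of light 100, in place of 0.31. Without replicate 1 of step day 2.57 it was -0.02 there. Between the step groups it was 0.39 without replicate 1 of step day 2.57 and 0.69 without replicate 2 of step day 0.6, in place of 0.71. At step day 2.57 relative to light 700 it was 0.52 without replicate 2 of light 700, in place of 0.71. Without replicate 1 of step day 2.57 it was 0.51 there. At step day 0.6 relative to light 700 it was 0.16 without replicate 2 of step day 0.6. Without replicate 2 of light 700 it was -0.06 there, in place of 0.20.

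**Figure D3:**
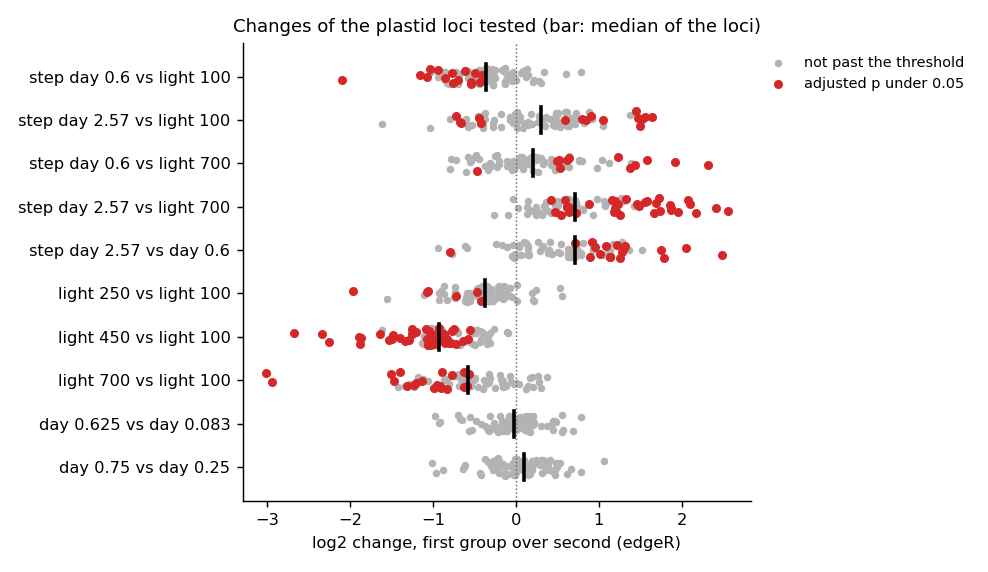
Log2 change of each plastid locus tested in the 10 comparisons of group pairs, first group over second, with red points for an adjusted p under 0.05 and a bar for the median of the loci. Calls at growth light 450 and 700 are all falls, calls at step day 2.57 relative to light 700 are all rises, and the time-of-day comparisons hold no call.

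A run of 3 neighbouring identifiers, ATCG00170, ATCG00180 and ATCG00190, stood out at step day 2.57. ATCG00190 had 44.8 and 45.4 CPM at step day 2.57, 19.7 and 16.1 CPM at step day 0.6, 20.9 and 22.5 CPM at light 100 and 13.3 and 10.1 CPM at light 700. Everywhere else in the series it had between 9.78 and 19.1 CPM, so the 2 replicates of step day 2.57 agreed closely and lay apart from the other 22. Its log2 change was 1.32 ± 0.14 relative to step day 0.6 (adjusted p = 0.000126), 1.05 ± 0.14 relative to light 100 (adjusted p = 6.17e-05) and 1.95 ± 0.14 relative to light 700 (adjusted p = 1.12e-06).

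ATCG00180 had 14.0 and 12.5 CPM at step day 2.57, 4.20 and 2.07 CPM at step day 0.6, 4.20 and 4.79 CPM at light 100 and 4.25 and 3.77 CPM at light 700. Its log2 change was 2.05 ± 0.25 relative to step day 0.6 (adjusted p = 0.000374) and 1.55 ± 0.25 relative to light 100 (adjusted p = 0.000291). ATCG00170 had 14.4 and 8.93 CPM at step day 2.57, 2.49 and 1.61 CPM at step day 0.6, 2.54 and 5.01 CPM at light 100 and 2.02 and 1.98 CPM at light 700. It had the largest rise among loci of at least 1 CPM in the 3 comparisons with step day 2.57 on top, with log2 changes of 2.48 ± 0.33 relative to step day 0.6, 1.65 ± 0.31 relative to light 100 and 2.55 ± 0.32 relative to light 700. For both loci the replicates of step day 2.57 lay above all others in the series.

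**Figure D4:**
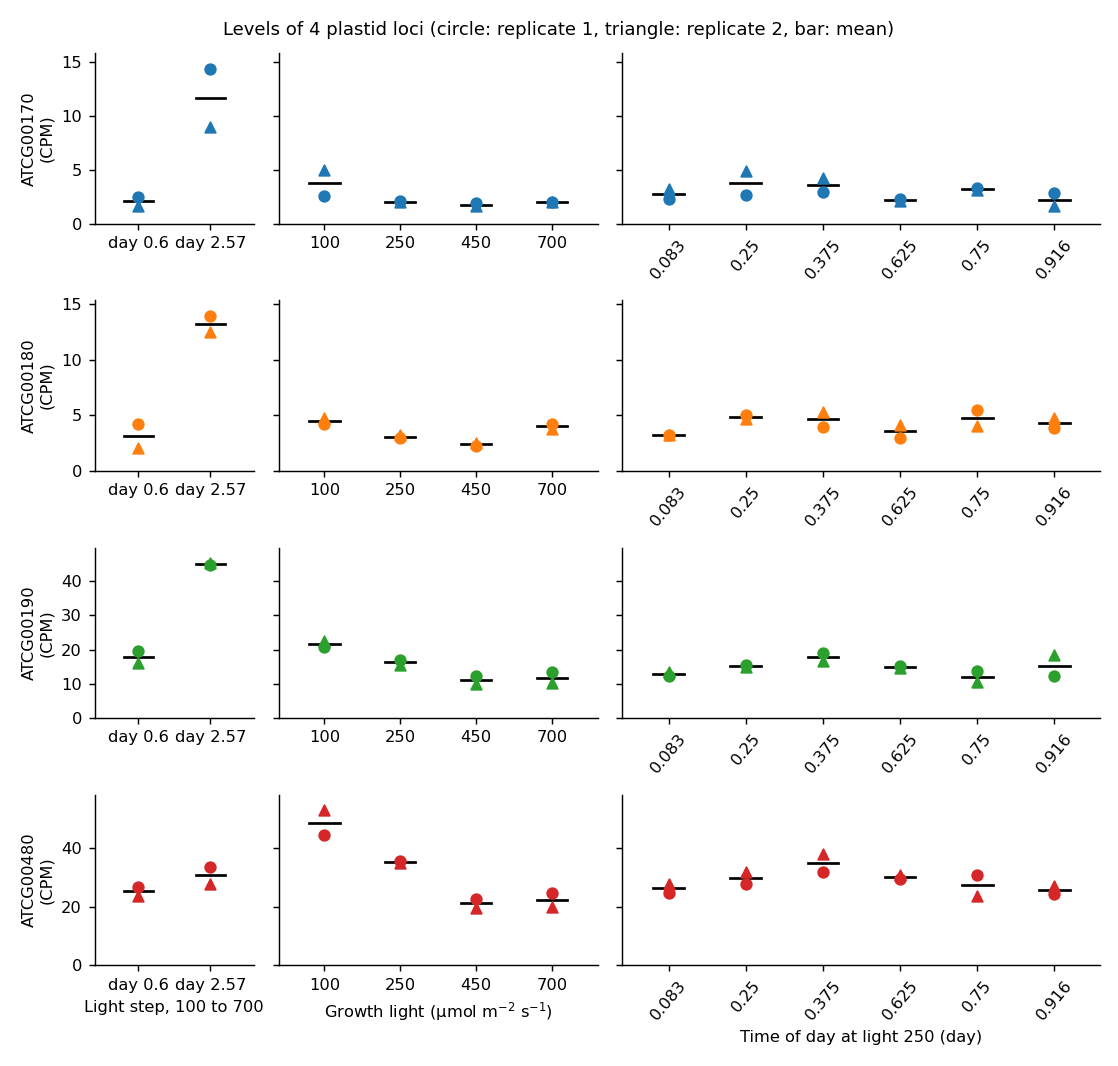
Level in CPM of ATCG00170, ATCG00180, ATCG00190 and ATCG00480 in every replicate, by light step, growth light and time of day, with circles for replicate 1, triangles for replicate 2 and a bar for their mean. The first 3 loci are highest at step day 2.57, and ATCG00480 is highest at growth light 100.

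ATCG00340 and ATCG00350, neighbours by identifier and both among the loci with most counts, also rose at step day 2.57. ATCG00340 had 96.7 and 69.4 CPM at step day 2.57, 42.3 and 32.3 CPM at step day 0.6, 37.8 and 54.2 CPM at light 100 and 66.4 and 45.0 CPM at light 700. ATCG00350 had 86.9 and 61.0 CPM at step day 2.57, 35.3 and 31.7 CPM at step day 0.6, 33.0 and 52.2 CPM at light 100 and 56.2 and 39.3 CPM at light 700. The log2 changes between the step groups were 1.14 ± 0.22 for ATCG00340 (adjusted p = 0.00556) and 1.13 ± 0.22 for ATCG00350 (adjusted p = 0.00609). Both calls were lost without replicate 1 of step day 2.57, the higher replicate. The log2 changes without it were 0.87 for ATCG00340 and 0.84 for ATCG00350.

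ATCG00860 and ATCG01280 had 7.96 and 4.81 CPM and 7.66 and 5.01 CPM at step day 2.57, against 1.67 and 2.11 CPM and 2.49 and 2.61 CPM at step day 0.6. Their log2 changes between the step groups were 1.75 ± 0.36 (adjusted p = 0.00717) and 1.30 ± 0.30 (adjusted p = 0.0139), and their replicates did not overlap. Both calls were lost without replicate 1 of step day 2.57, whereas those of ATCG00170, ATCG00180 and ATCG00190 were kept without it. ATCG00040 was higher in both step groups than at light 700, with 6.50 and 6.29 CPM at step day 0.6 and 12.1 and 7.93 CPM at step day 2.57, against 3.19 and 2.33 CPM at light 700. Its log2 changes were 1.24 ± 0.26 (adjusted p = 0.00182) and 1.87 ± 0.26 (adjusted p = 0.000104). Among loci of at least 1 CPM, ATCG01130 had the largest rise at step day 0.6 relative to light 700, 1.38 ± 0.49 (adjusted p = 0.0308), a call lost without replicate 2 of either group.

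Among the loci that fell after the step, ATCG00480 had 26.7 and 23.7 CPM at step day 0.6 and 33.6 and 27.9 CPM at step day 2.57, against 44.6 and 53.1 CPM at light 100. Its log2 changes were -0.95 ± 0.14 (adjusted p = 0.000132) and -0.67 ± 0.14 (adjusted p = 0.00194), and neither step group reached the light 100 replicates. Both calls were kept with any 1 replicate of the groups compared left out. ATCG00470 fell as well, with log2 changes of -0.70 ± 0.20 at step day 0.6 and -0.73 ± 0.20 at step day 2.57 (adjusted p = 0.0103 and 0.0104), and both calls were lost without replicate 2 of light 100. ATCG01020 was the single locus that fell at step day 2.57 relative to step day 0.6, with 2.79 and 2.61 CPM against 4.17 and 5.15 CPM, a log2 change of -0.80 ± 0.21 (adjusted p = 0.0257). That call was lost without either replicate of step day 2.57 or replicate 2 of step day 0.6. ATCG01010, ATCG00140 and ATCG00580 fell most at step day 0.6 relative to light 100 among loci of at least 1 CPM, with log2 changes of -1.16 ± 0.41, -1.08 ± 0.31 and -1.04 ± 0.38. Without replicate 2 of light 100 these 3 calls were lost, and the 1 locus still called was ATCG00480. ATCG00720 was the single locus lower at step day 0.6 than at light 700, at 6.56 and 7.08 CPM against 10.7 and 8.62 CPM (-0.48 ± 0.17, adjusted p = 0.0283), a call lost without replicate 1 of either group.

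Few plastid loci passed the tests over time of day. At day 0.625 relative to day 0.083, 0 of the 84 loci tested passed, where 41.9% of all loci were called, 19.9% higher and 22.0% lower. Of the 84, 0 had an unadjusted p under 0.05, the lowest adjusted p was 0.112, and DESeq2 called 0. At day 0.75 relative to day 0.25, 0 of 84 passed, where 45.4% of all loci were called, 21.5% higher and 23.9% lower. There, 3 had an unadjusted p under 0.05, the lowest adjusted p was 0.0663, and DESeq2 again called 0. With all replicates, the medians of the plastid loci in these comparisons were -0.03 and 0.10, against -0.01 and 0.03 for all loci. At day 0.75 relative to day 0.25 the median was -0.01 without replicate 1 of day 0.75. Without replicate 2 of day 0.75 it was 0.17, so its direction changed with the replicate left out. The plastid replicates of days 0.083, 0.375 and 0.625 were among those that differed most, so that changes smaller than this spread were not detectable here.

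Across the 6 diurnal groups at once, 2 of the 84 plastid loci passed and 3 had an unadjusted p under 0.05, where 60.0% of all loci were called. ATCG00040 had 2.33 and 3.81 CPM in the replicates of day 0.083, 4.65 and 2.98 CPM in those of day 0.25, and 5.69 and 7.04 CPM in those of day 0.375. It had 1.64 and 2.61 CPM in those of day 0.625, 4.39 and 3.80 CPM in those of day 0.75, and 3.70 and 3.39 CPM in those of day 0.916. Its highest and lowest groups were days 0.375 and 0.625, 1.61 apart on the log2 scale (adjusted p = 0.0136). ATCG01000 was a low locus, with 0.384 and 0.438 CPM in the replicates of day 0.083, 0.509 and 0.320 CPM in those of day 0.25, and 0.767 and 1.05 CPM in those of day 0.375. It had 0.352 and 0.379 CPM in those of day 0.625, 1.09 and 0.645 CPM in those of day 0.75, and 0.898 and 0.854 CPM in those of day 0.916, and its groups spanned 1.31 on the log2 scale (adjusted p = 0.0374). Both calls were lost with replicate 2 of day 0.375 or replicate 1 of day 0.625 left out. At least 1 of them was lost without either replicate of day 0.083, replicate 2 of day 0.25 or replicate 1 of day 0.375.

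The levels so far are relative to all transcripts. Scaling the plastid loci to the plastid total, in which the 4 loci with most counts weigh 88.7%, was added after the values were seen. It gives each locus mainly relative to those 4 loci, so a rise on this scale can be a smaller fall than theirs. All other loci kept the scaling to all transcripts in these fits. The counts over all loci hold both directions, so they are no like background for the plastid loci on this scale. At light 450 relative to light 100, 6 of 82 loci were then called higher and 1 lower, in place of 0 and 44. Of all 20669 loci tested, 9006 were called in that fit. ATCG00020 changed by 0.42 and ATCG00280 by 0.41 on that scale, against -0.58 and -0.55 relative to all transcripts, and both passed on both scales. At light 700, 8 were called higher and 5 lower, and 5 were called on both scales with the same sign, where 8265 of all 20669 were called. At step day 0.6 relative to light 100, 7 of 84 were called higher and 1 lower, where 10121 of all 20652 were called.

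At step day 2.57 relative to light 100, 31 of 84 loci were called higher and 0 lower on the plastid scale. The 11 that rose relative to all transcripts were among them, and 8641 of all 20652 loci tested were called. Relative to light 700, 24 plastid loci were called higher at step day 2.57 and 0 lower, where 9555 of all loci were called. Relative to step day 0.6, 15 were higher and 1 lower, where 3135 of all loci were called. At step day 0.6 relative to light 700, 9 were higher and 6 lower, where 11047 of all loci were called. ATCG00170 changed by 2.27, 1.97 and 2.26 on this scale relative to step day 0.6, light 100 and light 700, and ATCG00190 by 1.16, 1.40 and 1.72. The rises at step day 2.57 were thus seen on both scales, whereas most of the falls with growth light were not past the threshold on the plastid scale.

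**Figure D5:**
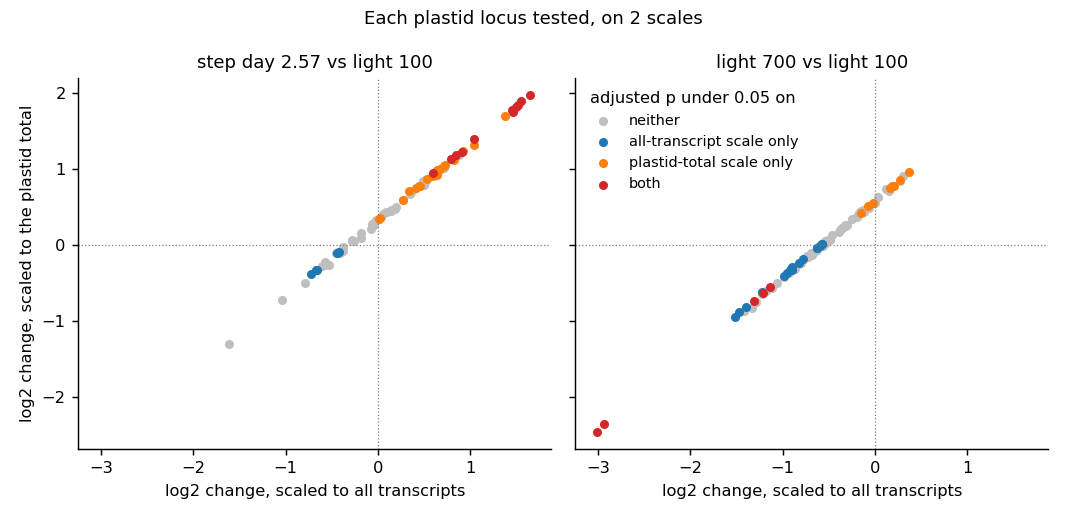
Log2 change of each plastid locus tested, scaled to all transcripts on the horizontal axis and to the plastid total on the vertical axis, for step day 2.57 and for growth light 700, each relative to light 100, with colours for the scale on which the adjusted p was under 0.05. All loci lie above the diagonal, and at step day 2.57 many pass on the plastid scale alone.

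Of the loci with a product name in the annotation, 3 are named as ribosomal proteins. ATCG01310 (ribosomal protein L2) had 4.63 and 3.63 CPM at light 450 and 4.42 and 3.90 CPM at light 700, against 6.80 and 8.89 CPM at light 100. It fell at both lights, with log2 changes of -0.92 ± 0.19 and -0.92 ± 0.18 (adjusted p = 0.00172 and 0.00184). It was higher than at light 700 in both step groups, by 0.62 ± 0.18 at day 0.6 and 0.65 ± 0.18 at day 2.57 (adjusted p = 0.0128 and 0.0114), calls that were both lost without replicate 2 of light 700. ATCG00830 had a similar sum of counts, 4009 against 4141 for ATCG01310, and the counts of the pair differed by at most a factor of 1.25 in a replicate.

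ATCG00750 (ribosomal protein S11) had 2.72 and 1.72 CPM at step day 2.57, against 0.663 and 0.608 CPM at step day 0.6 and 0.900 and 0.616 CPM at light 700. It rose by 1.78 ± 0.40 relative to step day 0.6 (adjusted p = 0.0117) and by 1.56 ± 0.38 relative to light 700 (adjusted p = 0.00512), and it fell at light 450 relative to light 100, with a log2 change of -1.25 ± 0.43 (adjusted p = 0.0352). Both rises were lost without replicate 1 of step day 2.57, and the fall without replicate 2 of light 100 or either replicate of light 450. ATCG00660 (ribosomal protein L20) was low, between 0.0684 and 0.895 CPM, and passed in 0 of the 10 comparisons of group pairs. Its lowest adjusted p, 0.0502, was that of step day 2.57 relative to light 700.

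ATCG00430 is named photosystem II reaction center protein G in a match note alone, and what it encodes was not checked. It fell at light 450 and light 700 relative to light 100, with log2 changes of -1.0 ± 0.25 and -0.78 ± 0.25 (adjusted p = 0.00709 and 0.0260). Its levels were 1.45 and 1.47 CPM at light 450 and 1.80 and 1.62 CPM at light 700, against 2.69 and 3.15 CPM at light 100. ATCG00530 (the CemA-like protein) fell at light 250 and light 450, with log2 changes of -0.72 ± 0.23 and -0.64 ± 0.23 (adjusted p = 0.0366 and 0.0419). It had 3.13 and 4.23 CPM at light 250 and 4.11 and 3.69 CPM at light 450, against 5.65 and 6.47 CPM at light 100. Its call at light 250 was lost without either replicate of light 100 or replicate 1 of light 250. The calls of ATCG00530 at light 450 and of ATCG00430 at light 700 were lost with any 1 replicate of the groups compared left out. ATCG00670 (ClpP) passed in 0 of the 10 comparisons, with levels from 2.02 to 3.97 CPM and a lowest adjusted p of 0.0657.

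The nuclear genes that serve plastid transcription were taken as fixed lists, which were chosen with results of these data known. Proteins associated with the plastid-encoded polymerase were lower in 13 of 13 cases at each of light 250, 450 and 700 relative to light 100. Their median log2 changes were -0.76, -0.78 and -0.63, where 14.4%, 22.3% and 20.3% of all loci tested were called lower. At step day 2.57, 13 of 13 of these proteins were higher relative to light 700, with a median of 1.45. Relative to light 100, 10 of 13 were higher, with a median of 0.43. Of all loci, 24.1% and 22.2% were called higher in these 2 comparisons. At step day 0.6, 12 of the proteins were higher than at light 700, where 26.8% of all loci were called higher. Relative to light 100, 5 were higher and 1 lower, where 25.0% of all loci were called higher and 24.0% lower. The fructokinase-like proteins FLN2 (AT1G69200) and FLN1 (AT3G54090) rose most at step day 2.57 relative to light 700, by 2.34 ± 0.16 and 2.15 ± 0.14.

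Sigma factors did not move as a group, with 3, 4 and 3 of 6 called at light 250, 450 and 700. Of all loci tested, 28.7%, 43.7% and 40.0% were called there. SIGE (AT5G24120), a sigma factor known for its response to light, rose by 1.28 ± 0.10, 1.59 ± 0.10 and 1.63 ± 0.10 at light 250, 450 and 700 relative to light 100. Its level at light 700 was 43.6 ± 0.87 CPM, against 14.0 ± 0.80 CPM at light 100 (SD, n = 2 each). SIG2 (AT1G08540) fell at the same lights, with log2 changes of -0.38 ± 0.09, -0.75 ± 0.09 and -0.59 ± 0.09. By time of day SIGE fell and SIG4 (AT5G13730) rose at day 0.75 relative to day 0.25, with log2 changes of -2.32 ± 0.21 and 1.94 ± 0.18, in the comparison in which 0 plastid loci passed. The list of phage-type organelle polymerases, which also holds the mitochondrial enzyme MGP3 (AT1G68990), was higher in 3 of 3 cases in both step groups relative to light 100. Of all loci tested, 25.0% and 22.2% were called higher at step days 0.6 and 2.57. SCA3 (AT2G24120), the plastid enzyme, rose by 0.84 ± 0.13 at day 0.6 and 0.82 ± 0.13 at day 2.57.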

How the data were processed

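Leaf RNA was measured by RNA-seq in 12 groups of 2 replicates, each on 2 lanes. The deposited values are whole-number counts of reads on each transcript in each lane, per the file headers, from reads aligned with Bowtie2 to TAIR10, per the submitters' processing notes. The counting tool and the use of strand are not given in the sources used here, and overlapping genes cannot be told apart without strand. Of 3 tables, 1 holds its rows in duplicate and 1 copy was used. The 12 columns that occur in more than one table are identical there and were used once, which left 48 columns. A pair of columns of step day 2.57 share a name and were joined to their lane by the variance ratio within a library, 1.91, against 7.45 to 7.49 for the other joining. Of the counts from 1 to 10, 70.4% are even, so counts need not be independent molecules.

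The lanes of a replicate and the transcripts of a locus were added up, and each replicate holds 20418095 to 36331053 counts. The 33602 loci entered edgeR 4.0.16 under R 4.3.3 (TMM scaling, filterByExpr, glmQLFit and glmQLFTest). P-values were adjusted after Benjamini and Hochberg over the loci of a fit that passed the filter, with a threshold of 0.05. One fit held the 4 growth light groups, one the 6 diurnal groups, and one both step groups with light 100 and light 700. A standard error is the size of the log2 change over the root of its F value, and levels are CPM under one TMM scaling of all replicates. The plastid share is a percent of the total count and has no test. Each fit was tried on simulated counts, drawn independently for each locus with a fixed spread. Those counts lack the joint shift of the plastid loci between replicates, so the trial does not bear on it.

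The members and lists were chosen with earlier results of these data known. Loci were named as follows: the 12 plastid loci of highest mean CPM, up to 3 rises and 3 falls per comparison among called loci with a mean of at least 1 CPM and replicates that do not overlap, the 6 loci with a product in the annotation, and called genes of the nuclear lists. ATCG00470, ATCG00830, ATCG00660, ATCG00670 and ATCG01000 were added after their values were seen or for their annotation. A choice of plastid genes by symbol, a grouping by complex and likeness to psbA were also planned and could not be applied, because identifiers and symbols are not paired in the tables used here. Same-numbered replicates did not pair throughout any set, where pairing was taken to need every pair of groups in the set. Over all loci, the correlation of their deviations was over 0.1 in 2 of 6 pairs of groups in growth light. It was over 0.1 in 3 of 15 pairs in the diurnal set and 0 of 6 in the step set. Over the plastid loci alone it was over 0.1 in 1 of 6, 9 of 15 and 0 of 6 pairs. In the diurnal set every pair with day 0.916 was negative over the plastid loci, from -0.16 to -0.76. Apart from those, only days 0.25 and 0.375 (-0.01) were not over 0.1, so differences among plastid loci were partly shared over most other days. A correlation over loci does not measure their joint shift. The median log2 difference of replicate 2 minus replicate 1 was 0.40, 0.01, 0.42, 0.53 and -0.18 at days 0.083, 0.25, 0.375, 0.625 and 0.75. The other settings were RLE and total-count scaling, scaling by nuclear loci alone, DESeq2 1.42.0, 2 other filters, a replicate block, each lane alone, halved counts, fits of 2 groups, and leaving out day 0.916 or each replicate.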

Additional observations from a re-analysis of the deposited data

How the results depend on the processing

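Both the numbers of plastid loci called and their directions depended on settings. At step day 0.6 relative to light 700, 11 higher and 1 lower turned to 3 and 7 with total-count scaling. There 11867 of all 20652 loci were called. Without replicate 2 of light 700, the median log2 change of the plastid loci in this comparison turned from 0.20 to -0.06. At step day 2.57 relative to light 100, the median turned from 0.31 to -0.02 without replicate 1 of step day 2.57. Scaling to the plastid total turned 0 higher and 44 lower at light 450 to 6 and 1, 0 and 21 at light 700 to 8 and 5, and 0 and 15 at step day 0.6 relative to light 100 to 7 and 1. Leaving out each replicate in turn gave 0 to 16 calls at light 250, 20 to 44 at light 450 and 6 to 25 at light 700, relative to light 100. It gave 1 to 15 at step day 0.6 and 6 to 19 at step day 2.57 relative to light 100, 3 to 13 and 12 to 43 relative to light 700, 4 to 19 between the step groups, 0 to 0 at day 0.625, 0 to 2 at day 0.75 and 0 to 2 across the diurnal groups. Where 1 sample was left in a group, it was assumed to vary like the others. The number of all loci called changed in these fits too. Without a filter beyond 1 read, 14 plastid loci were called at light 250, where 6348 of all 25385 loci were called. With that setting 28 were called at step day 2.57 relative to light 100 and 34 between the step groups. Of all 25268 loci, 9042 and 4382 were called there. Across the diurnal groups 1 was called, against 12878 of all 25955 loci. With at least 10 counts in every replicate 1 was called across the diurnal groups, against 12057 of all 18624 loci. DESeq2 called 13 at light 700, 9 at step day 0.6 relative to light 100 and 6 relative to light 700. Of all loci it called 7241 of 21447, 9299 of 21838 and 10039 of 21838. Total-count scaling moved the median of all loci to 0.24 at light 450, 0.19 at light 700 and 0.23 at day 0.75. For step days 0.6 and 2.57 relative to light 700 it moved that median to -0.25 and -0.27. It called 13 plastid loci at light 700, 21 at step day 2.57 relative to light 700 and 1 at day 0.75. Of all loci it called 9822 of 20669, 10902 of 20652 and 9856 of 20958. Lane 1 alone called 2 at light 250 and 1 across the diurnal groups, against 4756 of all 19823 and 10874 of all 20135 loci. Lane 2 alone called 29 at light 450, 1 at day 0.75, 5 at step day 0.6 relative to light 700 and 10 between the step groups. Of all loci it called 7548 of 19854, 8078 of 20127, 9627 of 19812 and 2372 of 19812. Fits of only the groups compared called 16 at light 250 and 3 at day 0.75, against 6691 of all 20170 and 8774 of all 20196 loci. The cause of these differences was not tested.

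Scaling to the plastid total called 1 at light 250, 7 at light 450, 13 at light 700, and 8 and 31 at step days 0.6 and 2.57 relative to light 100. Of all loci, that scaling called 5932, 9006 and 8265 of 20669, and 10121 and 8641 of 20652. It turned the sign of 7 named changes: at light 450 ATCG00020 to 0.42, ATCG00280 to 0.41 and ATCG00680 to 0.24, at light 700 ATCG00920 to 0.0162 and ATCG01210 to 0.0064, and at step day 0.6 relative to light 100 ATCG00920 to 0.0665 and ATCG01210 to 0.0443. Without the 4 loci of highest count, the log2 ratio of the plastid share was 0.21 at step day 2.57 relative to light 100, against -0.40 with them, and 0.54 between the step groups, against 0.12. Of 976 values of named changes under other settings, 785 kept their direction and side of the threshold, 184 kept the direction only and 7 changed sign. A replicate block was also fitted, although the replicate numbers did not pair the samples by the rule used. It called 1 locus across the diurnal groups, 39 at light 450, 19 at light 700 and 11 at step day 0.6 relative to light 100. Of all loci it called 11732 of 20958, 9106 of 20669, 8418 of 20669 and 9928 of 20652. The share without transfer and ribosomal RNA loci was not run, since those loci could not be identified by name in the tables used here.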

Other observations

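Other nuclear lists that bear on plastid transcripts were measured beside the plastid loci. Of 16 genes of plastid RNA processing and stability, 11, 13 and 12 were lower and 1 each higher at light 250, 450 and 700 relative to light 100. Their median log2 changes were -0.33, -0.61 and -0.49. Of all loci tested, 14.4%, 22.3% and 20.3% were called lower and 14.2%, 21.4% and 19.7% higher. At step day 2.57, 13 of the 16 genes were higher and 1 lower relative to light 700, with a median of 0.65. There 24.1% of all loci were called higher and 22.2% lower. The 4 genes of the Rubisco small subunit, the nuclear partner of the plastid-encoded large subunit, were lower in 4 of 4 cases at light 450 and at light 700 relative to light 100, with medians of -0.97 and -0.80. At light 250, 1 of the 4 was lower, with a median of -0.31. They were higher in 4 of 4 cases in both step groups relative to light 700, with medians of 1.12 at day 0.6 and 1.20 at day 2.57. Relative to light 100, 2 of 4 were higher at step day 0.6 and 3 of 4 at step day 2.57, with medians of 0.36 and 0.43. Of all loci, 14.4%, 22.3% and 20.3% were called lower at light 250, 450 and 700. In the step groups, 26.8% and 24.1% were called higher relative to light 700, and 25.0% and 22.2% relative to light 100. The 4 Rubisco genes are similar in sequence, so reads may have been divided between them.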
